A study of Mus musculus with 15 samples.

Results

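The comparison set Th9 cultures against Th1 cultures of mouse CD4 T cells when both were activated by antigen on antigen-presenting cells. Its members are the 2 arrays of Th9 cultures and the 2 arrays of Th1 cultures that the labels mark HA, 4 of the 15 arrays in the series, and all genes on the array with 1 symbol were compared. Naive CD4 T cells came from 3A9 mice, whose transgenic T cell receptor recognises hen egg lysozyme (HEL), and were sorted with an antibody against that receptor. Th9 HA cultures received 1 µg/ml HEL, 10 ng/ml IL-4 and 1 ng/ml TGF-beta. Th1 HA cultures received 2 µg/ml HEL, 10 ng/ml IL-12 and 10 µg/ml of a blocking IL-4 antibody. In both, irradiated (30 Gy) splenocytes of wild-type mice presented the HEL, and RNA was taken on day 4, 500 ng of it being amplified for each array. Since the HEL dose differed with the lineage, lineage and antigen dose cannot be told apart. The wild-type splenocytes are part of both cultures, and the labels do not say that they were removed before RNA was taken. Another 4 arrays held Th9 and Th1 cultures in the same cytokines, activated by plate-bound antibodies against CD3 (1 µg/ml) and CD28 (10 µg/ml) with no splenocytes, labelled PBAB. A single array of each lineage is labelled APC alone, and the labels do not define its content further.

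A naive CD4 T cell takes on 1 of several effector fates according to the cytokines present while its receptor is engaged. IL-12 acts through STAT4 and, with interferon-gamma, induces the transcription factor T-bet (Tbx21), which drives interferon-gamma and the Th1 programme of receptors and cytotoxic molecules. IL-4 acts through STAT6 to induce GATA3, and TGF-beta added to IL-4 turns that programme towards IL-9, with PU.1 (Spi1) and IRF4 among the factors known to act on the Il9 gene. IL-4 is also known to act on macrophages, in which it induces arginase 1, chitinase-like proteins and a set of chemokines.

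Expression is given as log2 units of the deposited values, and a difference is Th9 minus Th1 unless stated, with the standard error of the fit. A gene was called at a Benjamini-Hochberg adjusted p under 0.05 in limma, fitted over all 15497 genes that passed a level of 5.07 in at least 2 arrays. The replicates of a lineage correlated at 0.986 to 0.988 across genes, and arrays of different lineage at 0.972 to 0.980. The labels call the replicates biological but do not say from which animals or cultures they came, so the p-values measure spread between arrays only. That spread was pooled over all replicated groups of the series, and not taken from Th9 HA and Th1 HA alone. Deviations shared by arrays of the same replicate number remained part of it. With 2 arrays a group, the number of arrays limits the precision. Where a group mean lies below 5.07, signal cannot be told from background, and the size of the difference is uncertain.

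The label of Th1 cultures fitted their defining cytokine, and that of Th9 cultures fitted theirs less well. Il9, the cytokine that names Th9 cells, was at 5.39 and 6.29 in Th9 HA, against 5.07 and 5.08 in Th1 HA. All 4 values lie near the filter threshold, and the difference of 0.77 ± 0.80 was not called (adjusted p = 0.789). By comparison Il9 was at 8.31 and 5.33 in Th9 PBAB, and at 6.41 and 6.72 on the Th9 and Th1 arrays labelled APC alone. Those 2 arrays stand apart from the others, with an interquartile range of 2.04 and 2.02 against 3.02 to 3.48 on the 8 HA and PBAB arrays of Th9 and Th1, and a 3′ minus 5′ actin signal of 0.74 and 0.99 against 0.05 to 0.28. How far this moves the levels given for them here was not tested. Ifng, which encodes interferon-gamma, was at 6.84 and 8.24 in Th9 HA, against 13.20 and 12.44 in Th1 HA. The groups lie far apart, and Ifng fell by 5.27 ± 0.48 (adjusted p = 0.000113). Cd3e, a chain of the T cell receptor complex, was at 11.65 and 10.91 in Th9 HA, against 11.55 and 10.69 in Th1 HA, and Cd4 was at 9.80 and 9.43 in Th9 HA, against 10.22 and 9.43 in Th1 HA. These 2 T cell markers overlapped between the groups and were not called (adjusted p = 0.929 and 0.879).

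Over all genes, 827 of 15497 were called (5.34%), with 296 higher in Th9 HA (1.91%) and 531 lower (3.43%). At least a 2-fold difference was found for 600 of the called genes, of which 220 were higher and 380 lower. The median difference over all genes tested was 0.01. The arrays of the 2 groups did not overlap for 6075 genes (39.2%), with Th9 HA the higher for 18.8% and the lower for 20.4%. Lack of overlap is thus common with 2 arrays a group, and where it is given below for a called gene it adds no support to the call. The number called was 510 without Th1 HA 2, 508 without Th9 HA 1 and 474 without Th9 HA 2, and 1863 with the replicate number as a block. The block gave 731 higher and 1132 lower of the 15497 genes, and counts of list members under the block are to be set against these. Refits leaving out 1 array had no block, so replicate numbers were unbalanced in them. How far this made the lost calls given below was not tested. In simulated arrays of this comparison the fit without the block recovered 58% of genes changed by 1 log2 unit. It recovered 100% of those changed by 2 units and none of those changed by 0.5. Of its 137 calls 8 were false. The simulated noise was independent on each array, and deviations shared by arrays of the same replicate number were not simulated.

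**Figure D1:**
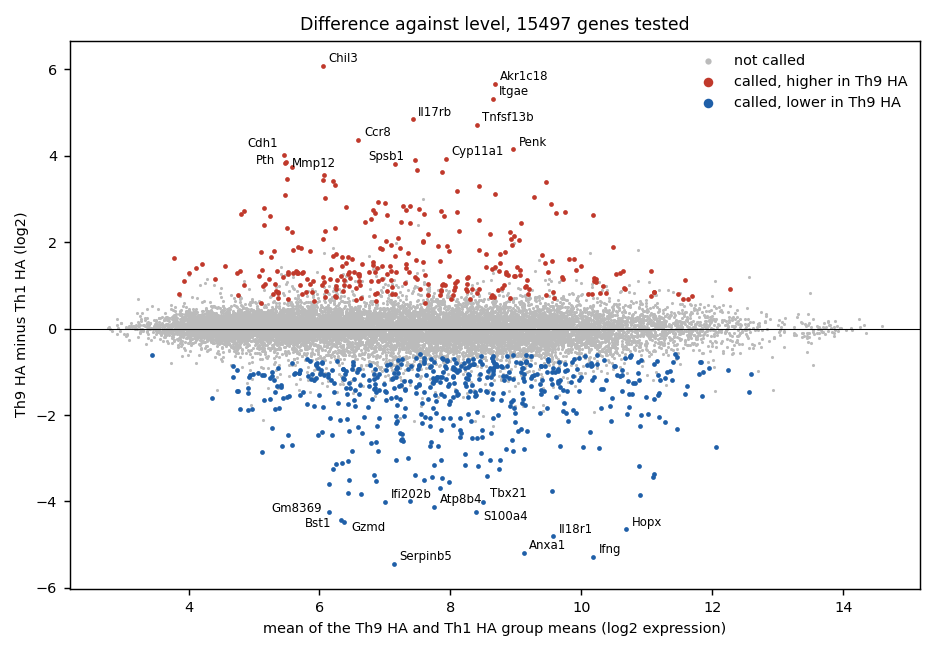
Difference of Th9 HA minus Th1 HA (log2, vertical axis) against the mean of the 2 group means (log2 expression, horizontal axis), 1 point a gene over 15497 genes. Red points are the 296 genes called higher in Th9 HA, blue points the 531 called lower, grey points those not called, and the labelled genes are the 12 largest called differences each way, from Chil3 at 6.08 to Serpinb5 at -5.44.

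The largest increases were those of Chil3, Akr1c18 and Itgae. Chil3, a chitinase-like protein secreted by macrophages exposed to IL-4, was at 9.11 and 9.07 in Th9 HA, against 2.89 and 3.13 in Th1 HA. Akr1c18, an enzyme that inactivates progesterone, was at 11.50 and 11.52 in Th9 HA, against 6.27 and 5.42 in Th1 HA. Itgae, the CD103 chain of the integrin that binds E-cadherin, was at 11.16 and 11.47 in Th9 HA, against 5.94 and 6.05 in Th1 HA. In each of these genes the lowest Th9 HA array stood more than 5 log2 units above the highest Th1 HA array. The differences were 6.08 ± 0.24 for Chil3, whose Th1 mean lay below the threshold, 5.67 ± 0.33 for Akr1c18 and 5.32 ± 0.32 for Itgae (adjusted p = 1.88e-06, 8.18e-06 and 8.18e-06). Cdh1, which encodes E-cadherin itself, was at 6.77 and 8.16 in Th9 HA, against 3.32 and 3.57 in Th1 HA (4.02 ± 0.39, adjusted p = 0.000159).

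Il17rb, a subunit of the IL-25 receptor, was at 10.04 and 9.65 in Th9 HA, against 4.94 and 5.07 in Th1 HA (4.84 ± 0.24, adjusted p = 3.15e-06). Tnfsf13b, the B cell survival factor BAFF, was at 10.75 and 10.77 in Th9 HA, against 6.11 and 5.98 in Th1 HA (4.71 ± 0.35, adjusted p = 3.59e-05). Ccr8, a chemokine receptor of type 2 and regulatory T cells, was at 9.17 and 8.38 in Th9 HA, against 4.64 and 4.20 in Th1 HA (4.36 ± 0.26, adjusted p = 8.18e-06). Genes named for the size of their difference were taken only if the groups did not overlap (39.2% of all genes), so the lack of overlap adds nothing. The Th1 HA means of Il17rb and Ccr8 were below the threshold. The steroid enzyme Cyp11a1, which makes pregnenolone from cholesterol, rose by 3.93 ± 0.30 on the probe set used, while another of its probe sets gave -0.82 ± 0.18. Further rises were seen in Penk, the precursor of enkephalins (4.14 ± 0.39), Spsb1, a SOCS-box protein (3.90 ± 0.39), Pth, which encodes parathyroid hormone (3.84 ± 0.37), and the macrophage elastase Mmp12 (3.82 ± 0.38). The other probe sets of Spsb1 gave smaller rises of 0.78, 1.41 and 1.43. The Th1 HA means of Pth, Mmp12 and Cdh1 lay below the threshold.

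The largest decreases, besides that of Ifng, were those of Serpinb5, Anxa1, Il18r1 and Hopx. Serpinb5, the serpin called maspin, was at 4.20 and 4.65 in Th9 HA, against 9.96 and 9.76 in Th1 HA. Anxa1, a phospholipid-binding annexin, was at 6.53 and 6.53 in Th9 HA, against 11.32 and 12.11 in Th1 HA. Il18r1, the ligand-binding chain of the IL-18 receptor, was at 7.04 and 7.30 in Th9 HA, against 11.86 and 12.09 in Th1 HA. The groups stood apart by more than 4 log2 units in each case. Serpinb5 fell by 5.44 ± 0.30, Anxa1 by 5.18 ± 0.31 and Il18r1 by 4.81 ± 0.20 (adjusted p = 6.5e-06, 8.18e-06 and 1.88e-06). Hopx, a homeodomain protein of Th1 effector cells, was at 8.31 and 8.41 in Th9 HA, against 12.89 and 13.12 in Th1 HA (-4.64 ± 0.27, adjusted p = 8.18e-06). Also lower were Bst1, an ectoenzyme on the cell surface (-4.43 ± 0.37), S100a4, a calcium-binding protein (-4.25 ± 0.46), Gm8369 (-4.24 ± 0.20), Atp8b4, a phospholipid flippase (-4.13 ± 0.29), and Ifi202b, a member of the interferon-inducible p200 family (-4.0 ± 0.20). Gzmd, a granzyme, was at 2.77 and 5.50 in Th9 HA, against 8.70 and 8.5 in Th1 HA. Its difference of -4.47 ± 0.89 was called (adjusted p = 0.0146), but not without Th1 HA 1, Th1 HA 2 or Th9 HA 1 (adjusted p up to 0.0946). The Th9 HA means of Serpinb5, Bst1, Gm8369, Ifi202b and Gzmd lay below the threshold.

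Of 26 tested genes of the Th1 programme, 11 were lower in Th9 HA, 2 were higher and 13 were not called. The list median was -1.47 against 0.01 over all genes. Over all genes 3.43% were called lower and 1.91% higher, the shares against which each list count below is to be set. Among the receptors, Il12rb2, the inducible chain of the IL-12 receptor, was at 4.75 and 4.42 in Th9 HA, against 8.12 and 7.53 in Th1 HA (-3.25 ± 0.32, adjusted p = 0.000179). Il18rap, the second chain of the IL-18 receptor, was at 7.52 and 8.18 in Th9 HA, against 9.85 and 10.57 in Th1 HA (-2.36 ± 0.30, adjusted p = 0.000893). In both genes every Th9 HA array was below every Th1 HA array, and the Th9 HA mean of Il12rb2 was below the threshold. The 2 chains of the interferon-gamma receptor differed in opposite directions. Ifngr2, the signalling chain, was at 8.42 and 8.32 in Th9 HA, against 5.58 and 5.28 in Th1 HA (2.94 ± 0.23, adjusted p = 4.7e-05). Its other probe set, at a similar mean level, gave a smaller rise of 0.69 ± 0.26, so the size of its difference is uncertain. Ifngr1, the ligand-binding chain, was at 10.94 and 10.78 in Th9 HA, against 11.75 and 11.93 in Th1 HA (-0.98 ± 0.21, adjusted p = 0.0215). The call of Ifngr1 was lost when any of the 4 arrays was left out (adjusted p up to 0.142). In these bulk cultures, fewer cells of a type and less RNA per cell cannot be told apart.

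Of the transcription factors, Tbx21 (T-bet) was at 6.27 and 6.71 in Th9 HA, against 10.66 and 10.36 in Th1 HA (-4.02 ± 0.43, adjusted p = 0.000291). Hlx, a homeobox factor that acts with T-bet, was at 5.49 and 5.46 in Th9 HA, against 8.95 and 7.66 in Th1 HA (-2.83 ± 0.34, adjusted p = 0.000718). Both stood clear of overlap. Eomes, the other T-box factor of effector cells, went the opposite way, at 7.31 and 7.77 in Th9 HA, against 6.81 and 6.69 in Th1 HA (0.79 ± 0.18, adjusted p = 0.0312). That call was lost without Th1 HA 1, Th1 HA 2 or Th9 HA 2 (adjusted p up to 0.228). Stat4, which transmits the IL-12 signal, was at 10.45 and 10.51 in Th9 HA, against 10.31 and 10.92 in Th1 HA, and was not called (-0.13 ± 0.25, adjusted p = 0.912). Runx3, a partner of T-bet, was at 10.18 and 9.24 in Th9 HA, against 10.80 and 10.20 in Th1 HA, and was called with the replicate block only (-0.79 ± 0.39, adjusted p = 0.387 without and 0.0239 with it). The block raised the number of lower genes of the Th1 programme to 16, and that over all 15497 genes from 531 to 1132.

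**Figure D2:**
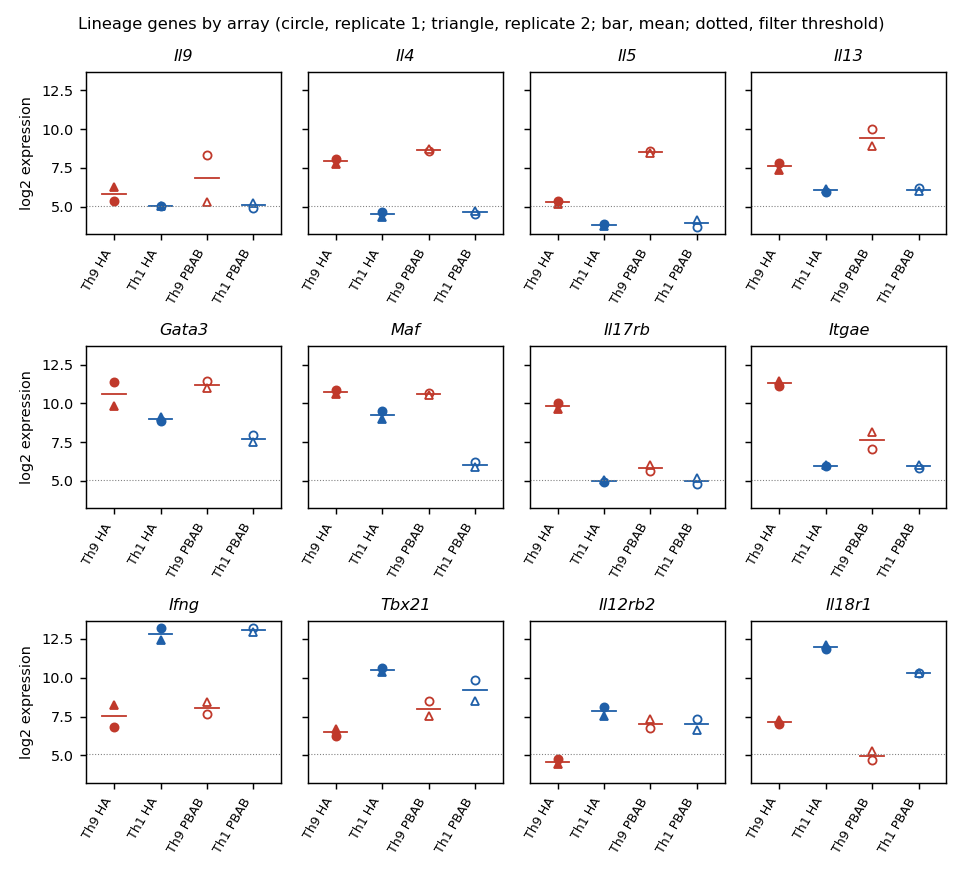
Log2 expression (vertical axis) of 12 lineage genes on each array, with Th9 (red) left of Th1 (blue), filled symbols for HA and open ones for PBAB. Circles are replicate 1, triangles replicate 2, short bars the group means and the dotted line the filter threshold of 5.07; Ifng is at 6.84 and 8.24 in Th9 HA and at 13.20 and 12.44 in Th1 HA.

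Genes of cytotoxic granules were lower in Th9 HA for a large part of their list. Of 19 members tested, 9 were lower (3.43% of all genes), none was higher and 10 were not called, with a median of -2.06. Prf1, the pore-forming protein perforin, was at 5.96 and 5.98 in Th9 HA, against 8.84 and 8.31 in Th1 HA (-2.61 ± 0.29, adjusted p = 0.000455). Gzmk, a granzyme, was at 4.85 and 5.34 in Th9 HA, against 8.40 and 8.84 in Th1 HA (-3.52 ± 0.26, adjusted p = 3.56e-05). Fasl, the death receptor ligand, was at 6.94 and 7.53 in Th9 HA, against 10.23 and 10.31 in Th1 HA (-3.03 ± 0.32, adjusted p = 0.000297). No array overlapped for these 3 genes, as was so for 39.2% of all genes. Nkg7, a granule membrane protein, was at 8.81 and 10.05 in Th9 HA, against 12.83 and 12.76 in Th1 HA (-3.36 ± 0.66, adjusted p = 0.0135), a call lost without Th1 HA 1, Th1 HA 2 or Th9 HA 1 (adjusted p up to 0.106). Perforin was not called on the mean of all its probe sets (adjusted p = 0.0588). Gzme (-2.86 ± 0.27) and Gzmg (-3.60 ± 0.47), which are close relatives of Gzmd, were lower with Th9 HA means below the threshold, and probe sets of such near-identical genes can share signal. The granzyme B inhibitor Serpinb9 (-2.35 ± 0.23) and the related Serpinb6b (-2.51 ± 0.36) were lower as well. Gzmb and Gzma, the best known granzymes, were not called, at -0.85 and 0.83.

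The receptors Klrk1 and Klrd1, shared with NK cells, were lower too. Klrk1, the activating receptor NKG2D, was at 6.61 and 7.64 in Th9 HA, against 10.53 and 10.21 in Th1 HA (-3.25 ± 0.59, adjusted p = 0.00884). Klrd1, the CD94 partner of NKG2 receptors, was at 6.62 and 7.54 in Th9 HA, against 9.81 and 10.44 in Th1 HA (-3.04 ± 0.61, adjusted p = 0.0148). The calls were lost without Th1 HA 1 (Klrk1), Th1 HA 2 (Klrd1) or Th9 HA 1 (both), with adjusted p up to 0.0763 and 0.108. Of 9 NK genes, 2 were lower (3.43% of all genes), 1 (Eomes) was higher (1.91%) and 6 were not called. Ncr1, a receptor specific to NK cells, was at a difference of 0.03. The mean level of the NK list was 6.34 and 6.70 in Th9 HA, against 7.06 and 7.16 in Th1 HA, and its part in the granule result was not tested.

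Genes induced by interferons were lower in part. Among 10 GTPases induced by interferon-gamma, which guard cells against intracellular microbes, 4 were lower (3.43% of all genes) and 6 were not called. Their median was -0.70. Gbp2 was at 10.00 and 11.39 in Th9 HA, against 13.04 and 13.81 in Th1 HA (-2.73 ± 0.48, adjusted p = 0.00776). Gbp7 was at 8.25 and 9.62 in Th9 HA, against 11.05 and 11.59 in Th1 HA (-2.39 ± 0.46, adjusted p = 0.0122). Gbp3 was at 7.39 and 8.45 in Th9 HA, against 9.92 and 10.56 in Th1 HA (-2.32 ± 0.33, adjusted p = 0.00211). Each guanylate-binding protein named here was lower on both Th9 HA arrays than on either Th1 HA array, and Th9 HA 1 was lower than Th9 HA 2 for all 3. Igtp, of the immunity-related GTPase family, was at 11.58 and 12.55 in Th9 HA, against 13.11 and 13.13 in Th1 HA (-1.05 ± 0.26, adjusted p = 0.0397), while Irgm1 (0.09) and Irgm2 (-0.11) were not called. The number of lower members was 1 without Th1 HA 2, 1 without Th9 HA 1 and 6 without Th9 HA 2. Without Th1 HA 2 or Th9 HA 1 the calls of Gbp2, Gbp7 and Igtp were lost, that of Igtp also without Th1 HA 1 (adjusted p up to 0.0659, 0.0896 and 0.162).

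The promoters of the 4 lower GTPases are shown because patterns of letters associated with interferon signalling could be looked for in them. Each is a 300-base RefSeq window on GRCm38.p6, from 250 bases before the annotated start to 50 after it, printed 5′ to 3′ on the strand of the gene. Capitals mark matches on either strand to the core of the interferon-stimulated response element, ISRE (GAAA, 2 bases of any kind, GAAA), to the gamma-activated site (TTCNNNGAA), to its wider form bound by STAT6 (TTC and GAA with 4 bases of any kind between) or to a T-box half-site (GGTGTGA), and matches may overlap. The genes printed were chosen after the values were seen. Where a gene had several windows, the one with the most matches is printed, so the choice favours windows that hold matches. In the counts by gene, a gene holds a pattern if any of its windows does.
Gbp2 (chr3:142620413-142620712, plus strand): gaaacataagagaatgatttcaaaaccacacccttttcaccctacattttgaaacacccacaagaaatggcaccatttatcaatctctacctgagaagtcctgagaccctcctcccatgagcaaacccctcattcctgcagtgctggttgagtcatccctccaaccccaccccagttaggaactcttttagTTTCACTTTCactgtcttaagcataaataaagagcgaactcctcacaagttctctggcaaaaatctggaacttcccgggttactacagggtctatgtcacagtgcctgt
Gbp3 (chr3:142559794-142560093, plus strand): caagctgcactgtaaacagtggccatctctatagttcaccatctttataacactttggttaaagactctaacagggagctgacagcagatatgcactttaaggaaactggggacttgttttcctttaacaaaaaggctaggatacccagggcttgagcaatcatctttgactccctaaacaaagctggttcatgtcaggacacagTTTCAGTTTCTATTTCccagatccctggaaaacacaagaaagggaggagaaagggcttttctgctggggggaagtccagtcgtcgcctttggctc
Gbp7 (chr3:142530086-142530385, plus strand): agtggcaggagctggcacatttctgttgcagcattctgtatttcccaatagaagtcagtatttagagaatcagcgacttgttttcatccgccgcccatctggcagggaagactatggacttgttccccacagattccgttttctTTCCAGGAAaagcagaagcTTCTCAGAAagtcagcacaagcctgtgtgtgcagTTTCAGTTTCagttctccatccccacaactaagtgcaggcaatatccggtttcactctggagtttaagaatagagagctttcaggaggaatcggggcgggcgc
Igtp (chr11:58199306-58199605, plus strand): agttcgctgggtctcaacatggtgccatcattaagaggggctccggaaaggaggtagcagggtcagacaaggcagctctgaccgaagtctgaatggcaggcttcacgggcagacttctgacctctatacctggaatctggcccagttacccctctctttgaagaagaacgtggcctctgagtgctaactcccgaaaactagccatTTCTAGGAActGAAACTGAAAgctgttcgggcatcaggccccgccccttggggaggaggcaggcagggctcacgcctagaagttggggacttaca
All 4 windows held the ISRE core, with 2 overlapping matches in that of Gbp3, and those of Gbp7 and Igtp also held TTCNNNGAA. Among the 7 GTPases of the list with a window, 6 held the ISRE core, against 3.60% of 12388 tested genes with a window and 3.44% of all 32851 windows. Of the 423 genes called lower with a window, 7.09% held it, and of the 231 called higher, 4.33% did. For TTCNNNGAA the shares were 10.4% of lower, 9.09% of higher and 8.27% of tested genes, and for the STAT6 form 8.51%, 9.52% and 6.81%. For GGTGTGA they were 5.67%, 6.49% and 4.37%. A match is a stretch of letters and not a measured binding site.

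Genes induced by type I interferon gave 5 lower (3.43% of all genes), none higher and 22 not called of 27, with a median of -0.54. Usp18, a protease that removes ISG15 and dampens interferon signalling, was at 5.71 and 6.29 in Th9 HA, against 9.66 and 9.72 in Th1 HA (-3.69 ± 0.28, adjusted p = 4.24e-05). Oas3, a sensor of double-stranded RNA, was at 6.92 and 6.66 in Th9 HA, against 8.24 and 8.06 in Th1 HA (-1.36 ± 0.17, adjusted p = 0.000719). These 2 stood clear of overlap, while most of the list was not called. Ifit1 (-1.15 ± 0.23), Mx1 (-1.49 ± 0.30, Th9 HA mean below the threshold) and Isg20 (-1.50 ± 0.34) were also lower, and Irf7 (0.11), Rsad2 (-0.01) and Mx2 (0.10) were not called. Calls were lost for Ifit1 without Th1 HA 2 or Th9 HA 2, for Mx1 without Th1 HA 2 or Th9 HA 1, and for Isg20 without Th1 HA 1, Th1 HA 2 or Th9 HA 1 (adjusted p up to 0.117, 0.122 and 0.171). With the replicate block 11 members were lower, where 1132 of all 15497 genes were. The window of Oas3, the called member with the smallest p among those with a match, is printed to the same plan.
Oas3 (chr5:120777610-120777909, minus strand): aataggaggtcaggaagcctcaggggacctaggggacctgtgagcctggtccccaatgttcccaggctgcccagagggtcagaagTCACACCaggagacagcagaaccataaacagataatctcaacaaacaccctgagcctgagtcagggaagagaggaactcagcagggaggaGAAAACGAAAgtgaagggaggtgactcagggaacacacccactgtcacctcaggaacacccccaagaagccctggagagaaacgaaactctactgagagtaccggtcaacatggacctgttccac
It held the ISRE core and GGTGTGA, and 10 of the 18 members with a window held the ISRE core. In class I presentation, 1 of 15 genes was called, where 5.34% of all genes were, so the count says little about the list. It was Nlrc5, the transactivator of class I genes, at 8.15 and 9.19 in Th9 HA, against 10.13 and 10.07 in Th1 HA (-1.43 ± 0.28, adjusted p = 0.0127). Its call was lost without Th1 HA 1 or Th1 HA 2 (adjusted p up to 0.0686). The class I heavy chains H2-K1 and H2-D1 were at -0.10 and -0.23 and were not called.

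Type 2 cytokines were higher in Th9 HA at modest levels. Il4, the defining cytokine of Th2 cells, was at 8.07 and 7.77 in Th9 HA, against 4.68 and 4.33 in Th1 HA (3.41 ± 0.18, adjusted p = 3.91e-06). Il5, a growth factor of eosinophils, was at 5.37 and 5.20 in Th9 HA, against 3.89 and 3.77 in Th1 HA (1.46 ± 0.24, adjusted p = 0.00525). Il13, which acts on epithelium and macrophages, was at 7.82 and 7.38 in Th9 HA, against 5.98 and 6.12 in Th1 HA (1.55 ± 0.36, adjusted p = 0.0336). The 3 did not overlap between groups, as was so for 39.2% of all genes, and the Th1 HA means of Il4 and Il5 lay below the threshold. The call of Il13 was lost when any of the 4 arrays was left out, and held with the replicate block (adjusted p = 0.0155). Csf2, the cytokine GM-CSF, went the other way, at 5.41 and 6.14 in Th9 HA, against 9.17 and 9.13 in Th1 HA (-3.38 ± 0.40, adjusted p = 0.000595). Il10, an anti-inflammatory cytokine, was high in both, at 11.33 and 9.56 in Th9 HA, against 11.63 and 10.21 in Th1 HA, and was not called (-0.47 ± 0.61, adjusted p = 0.852). Among the 9 cytokines tested, 3 were higher (1.91% of all genes), 1 was lower (3.43%) and 5 were not called. Their median was 0.77.

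The windows of Ifng and Il4, the defining cytokines of Th1 and Th2 cells, are printed to the same plan as those above.
Ifng (chr10:118440796-118441095, plus strand): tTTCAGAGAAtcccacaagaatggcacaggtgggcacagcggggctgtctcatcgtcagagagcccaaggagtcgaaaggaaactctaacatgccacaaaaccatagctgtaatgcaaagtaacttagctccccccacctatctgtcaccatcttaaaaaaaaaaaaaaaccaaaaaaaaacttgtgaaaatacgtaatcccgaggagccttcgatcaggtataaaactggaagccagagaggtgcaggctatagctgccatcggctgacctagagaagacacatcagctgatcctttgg
Il4 (chr11:53618616-53618915, minus strand): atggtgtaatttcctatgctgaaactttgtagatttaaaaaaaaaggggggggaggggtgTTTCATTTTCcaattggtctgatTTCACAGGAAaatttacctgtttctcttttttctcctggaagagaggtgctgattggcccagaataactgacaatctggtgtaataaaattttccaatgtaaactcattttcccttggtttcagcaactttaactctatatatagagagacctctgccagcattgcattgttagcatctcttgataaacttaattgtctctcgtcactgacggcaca
The window of Ifng held TTCNNNGAA, and that of Il4 held the STAT6 form and the ISRE core. No match to GGTGTGA lay in either, which says only that these letters are not in the 300 bases shown.

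Among 28 genes of IL-4 signalling and the Th9 programme, 7 were higher (1.91% of all genes), 2 were lower (3.43%) and 19 were not called. The list median was 0.45. Il4ra, the ligand-binding chain of the IL-4 receptor, was at 10.99 and 10.55 in Th9 HA, against 9.79 and 9.43 in Th1 HA (1.16 ± 0.26, adjusted p = 0.0285). Gata3 was at 11.39 and 9.84 in Th9 HA, against 8.86 and 9.14 in Th1 HA (1.62 ± 0.40, adjusted p = 0.045). Maf, a factor that acts on the Il4 gene, was at 10.85 and 10.59 in Th9 HA, against 9.51 and 9.03 in Th1 HA (1.45 ± 0.27, adjusted p = 0.00918). The groups did not overlap, and Th9 HA 1 was well above Th9 HA 2 for Gata3. Ccr4 (1.31 ± 0.21) and the aryl hydrocarbon receptor Ahr (1.56 ± 0.40, adjusted p = 0.0493) were the other higher members beside Il17rb and Ccr8. The factors best known for acting on Il9 did not pass the test. Spi1 (PU.1) was at 5.94 and 5.91 in Th9 HA, against 5.92 and 6.0 in Th1 HA (-0.04 ± 0.18), and Irf4 at 10.52 and 9.87 in Th9 HA, against 10.97 and 9.68 in Th1 HA (-0.13 ± 0.36). Stat6, at 10.45 and 9.57 in Th9 HA, against 10.35 and 9.80 in Th1 HA, was not called either (-0.07 ± 0.33). The 3 genes overlapped between groups, and their adjusted p were 0.97, 0.946 and 0.973.

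The lower members were 2. Etv5, an Ets factor, was at 5.05 and 4.03 in Th9 HA, with a mean below the threshold, against 8.62 and 8.07 in Th1 HA (-3.80 ± 0.51, adjusted p = 0.00136). Bhlhe40, a factor that sustains cytokine output of T helper cells, was at 10.22 and 9.83 in Th9 HA, against 12.16 and 11.84 in Th1 HA (-1.97 ± 0.29, adjusted p = 0.00258). Leaving out single arrays moved the number of higher members to 3 without Th1 HA 2 and 3 without Th9 HA 1. The call of Gata3 was lost without Th1 HA 1, Th1 HA 2 or Th9 HA 1, that of Il4ra without any of the 4, and that of Maf without Th1 HA 2 or Th9 HA 1 (adjusted p up to 0.209, 0.183 and 0.0793). Maf was not called on the mean of its probe sets (adjusted p = 0.217). With the replicate block Gata3, Il4ra and Maf were called (adjusted p = 0.0109, 0.00194 and 9.3e-05).

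The TGF-beta list gave 6 higher (1.91% of all genes), 1 lower (3.43%) and 17 not called of 24, with a median of 0.23. The 1 lower call therefore says little about the list. Beside Itgae, known to be induced by TGF-beta, the higher genes were in good part components and feedback genes of the pathway. Tgfbr1, the signalling receptor chain, was at 9.95 and 10.20 in Th9 HA, against 7.97 and 8.07 in Th1 HA (2.06 ± 0.25, adjusted p = 0.000745). Ldlrad4, a negative regulator of the pathway, was at 8.96 and 9.15 in Th9 HA, against 5.78 and 4.74 in Th1 HA (3.80 ± 0.34, adjusted p = 0.000112). Pmepa1, a regulator of the same kind, was at 10.49 and 9.97 in Th9 HA, against 7.50 and 6.74 in Th1 HA (3.11 ± 0.53, adjusted p = 0.00637). In all 3 every Th9 HA array was above every Th1 HA array. Skil, a repressor of Smad proteins (1.35 ± 0.21), and Smurf2, a ubiquitin ligase that acts on them (0.93 ± 0.18), were also higher, and Bcl2l11, which encodes the death protein BIM, was lower (-1.96 ± 0.42). Calls were lost for Pmepa1 and Bcl2l11 without Th1 HA 2 or Th9 HA 1 and for Smurf2 without any of the 4 arrays (adjusted p up to 0.0549, 0.139 and 0.0797). Smad7, the inhibitory Smad, was at 8.80 and 8.46 in Th9 HA, against 8.15 and 8.21 in Th1 HA, and was not called (0.45 ± 0.17, adjusted p = 0.209). Smad2, Smad3 and Smad4, which carry the signal, were at 0.20, -0.23 and -0.30, none of them called. Foxp3, the factor of regulatory T cells that TGF-beta can induce, was at 6.39 and 5.86 in Th9 HA, against 4.71 and 4.67 in Th1 HA. It was not called without the block (1.43 ± 0.43, adjusted p = 0.0974) and was called with it (adjusted p = 0.0162).

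**Figure D3:**
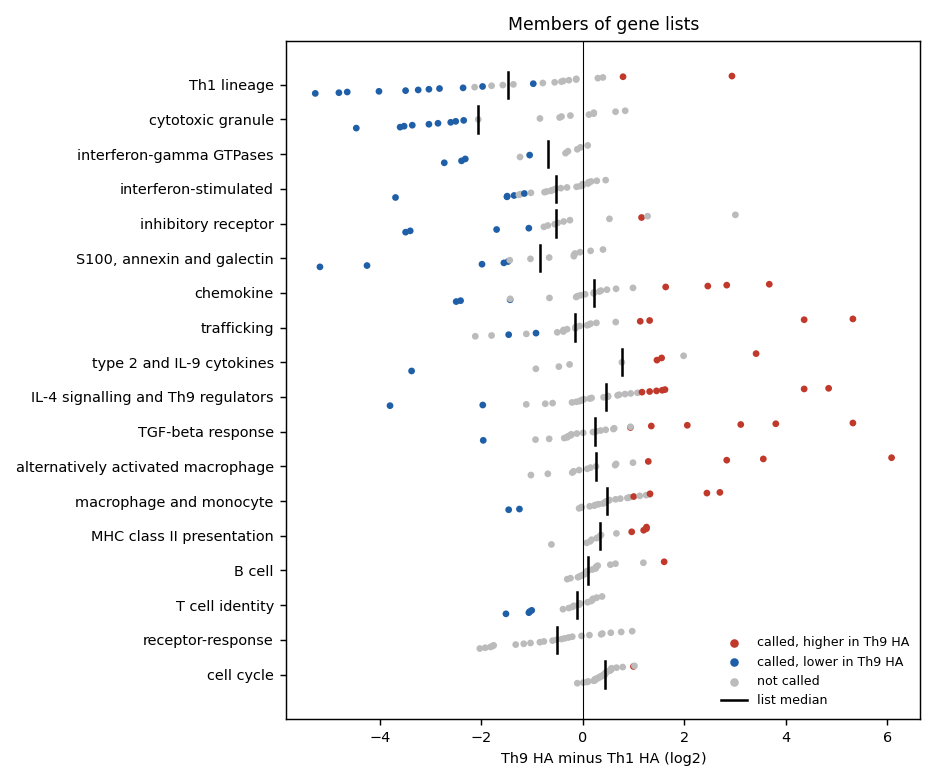
Difference of Th9 HA minus Th1 HA (log2, horizontal axis) for each tested member of 18 gene lists (rows), with black bars at the list medians. Red points were called higher in Th9 HA, blue points lower and grey points were not called; the median is -1.47 for the Th1 lineage, -2.06 for cytotoxic granule genes and 0.43 for cell cycle genes.

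Of 15 genes that IL-4 induces in macrophages, 4 were higher in Th9 HA (1.91% of all genes), Chil3 among them. None was lower, and the median was 0.26. Arg1, the enzyme arginase 1, was at 8.94 and 6.76 in Th9 HA, against 4.11 and 4.49 in Th1 HA (3.55 ± 0.60, adjusted p = 0.00619). Ccl24, an eosinophil attractant, was at 8.96 and 8.44 in Th9 HA, against 5.77 and 5.97 in Th1 HA (2.83 ± 0.22, adjusted p = 4.39e-05). Fcrls, an Fc receptor-like protein of the myeloid line, was at 5.89 and 6.70 in Th9 HA, against 5.03 and 4.98 in Th1 HA (1.29 ± 0.27, adjusted p = 0.0201), a call lost without Th1 HA 1, Th1 HA 2 or Th9 HA 2 (adjusted p up to 0.147). With Chil3 these were the called genes, all without overlap, and the Th1 HA mean lay below the threshold in 3 of them, Ccl24 being the exception. Other genes of the same response were not called, namely Retnla (0.09), Mrc1 (0.63), Chil4 (-0.08) and Ccl22 (0.65). The promoter window of Chil3, the gene with the largest difference of all, is printed to the same plan.
Chil3 (chr3:106167515-106167814, minus strand): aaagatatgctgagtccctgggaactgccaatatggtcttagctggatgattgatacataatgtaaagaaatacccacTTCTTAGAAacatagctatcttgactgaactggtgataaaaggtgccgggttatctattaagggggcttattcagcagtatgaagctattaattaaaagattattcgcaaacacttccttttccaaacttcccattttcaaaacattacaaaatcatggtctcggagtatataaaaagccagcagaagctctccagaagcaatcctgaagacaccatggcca
It held TTCNNNGAA and none of the other 3 patterns.

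On the arrays labelled APC alone, the same genes were high in the Th9 cytokines. Chil3 was at 13.79 on the Th9 array and 4.45 on the Th1 array, Arg1 at 12.39 and 4.99, and Ccl24 at 10.11 and 7.30, in the same order. In the PBAB cultures, which held no splenocytes, Chil3 was at 3.02 and 3.33 in Th9 PBAB, against 2.76 and 3.18 in Th1 PBAB, and was not called (adjusted p = 0.88). Arg1 was at 4.25 and 4.22 in Th9 PBAB, against 3.78 and 4.29 in Th1 PBAB. Among the Th9 and Th1 arrays, Chil3 and Arg1 were above the threshold on those of Th9 HA and of Th9 cultures labelled APC alone, and on no other.

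General markers of macrophages and monocytes had a higher mean on both Th9 HA arrays. Their mean log2 level over 26 genes was 6.65 and 6.35 in Th9 HA, against 5.90 and 5.94 in Th1 HA, 9.73 and 9.85 on the Th9 and Th1 arrays labelled APC alone, and 5.56 and 5.77 in Th9 PBAB, against 5.60 and 5.87 in Th1 PBAB. Of these genes 21 lay above 0 in difference, where 51.7% of all genes did. Of the 26, 4 were called higher (1.91% of all genes), 2 lower (3.43%) and 20 not called, with a median of 0.48. Lyz2, the macrophage lysozyme, was at 8.89 and 8.33 in Th9 HA, against 6.63 and 5.70 in Th1 HA (2.44 ± 0.40, adjusted p = 0.00486). Lyz1, a near-identical gene, gave 2.70 ± 0.50, so that the signal of the pair cannot be assigned to either. Mpeg1, a macrophage perforin (1.32 ± 0.25), and C1qc, a chain of complement C1q (1.00 ± 0.16), were the other higher genes, both with Th1 HA means below the threshold. Of the defining markers, Adgre1 (F4/80) was at a difference of 0.25 and Csf1r, the receptor of macrophage growth factor, at 1.32. Neither was called, although Csf1r was with the replicate block (adjusted p = 0.000323), which gave 7 higher genes of the list, and 2 of the 26 were below the threshold in all 4 arrays. Ctsd, a lysosomal protease (-1.25 ± 0.26), and Ccr2, a chemokine receptor of monocytes (-1.46 ± 0.30), were lower. Calls were lost for Lyz1 and Ccr2 without Th1 HA 2 or Th9 HA 1, and for Mpeg1 and Ctsd without Th1 HA 1 or Th9 HA 2 (adjusted p up to 0.0804, 0.136, 0.0842 and 0.156). The part of splenocyte RNA in the differences of Chil3, Arg1, Ccl24, Mmp12 and the chemokines below was not tested.

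Chemokines gave 4 higher (1.91% of all genes), 3 lower (3.43%) and 13 not called of 20, with a median of 0.21. Ccl6 was at 9.48 and 9.16 in Th9 HA, against 5.48 and 5.82 in Th1 HA (3.67 ± 0.52, adjusted p = 0.00199). Ccl9, a relative of Ccl6, was at 8.81 and 8.14 in Th9 HA, against 5.87 and 6.15 in Th1 HA (2.46 ± 0.27, adjusted p = 0.000354). These ligands of myeloid cells were also abundant on the Th9 array labelled APC alone, at 13.75 and 10.86. Ccl5, made by Th1 and cytotoxic cells, was at 6.90 and 6.89 in Th9 HA, against 9.02 and 9.77 in Th1 HA (-2.50 ± 0.26, adjusted p = 0.00024). Ccl3 (-2.41 ± 0.40) and Ccl4 (-1.43 ± 0.33), which bind the same receptor as Ccl5, were lower as well. Cxcl3, a neutrophil attractant, was called higher with both group means below the threshold. The call of Ccl4 was lost without Th1 HA 1, Th9 HA 1 or Th9 HA 2, and that of Cxcl3 without Th1 HA 2 (adjusted p up to 0.179 and 0.0541).

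**Figure D4:**
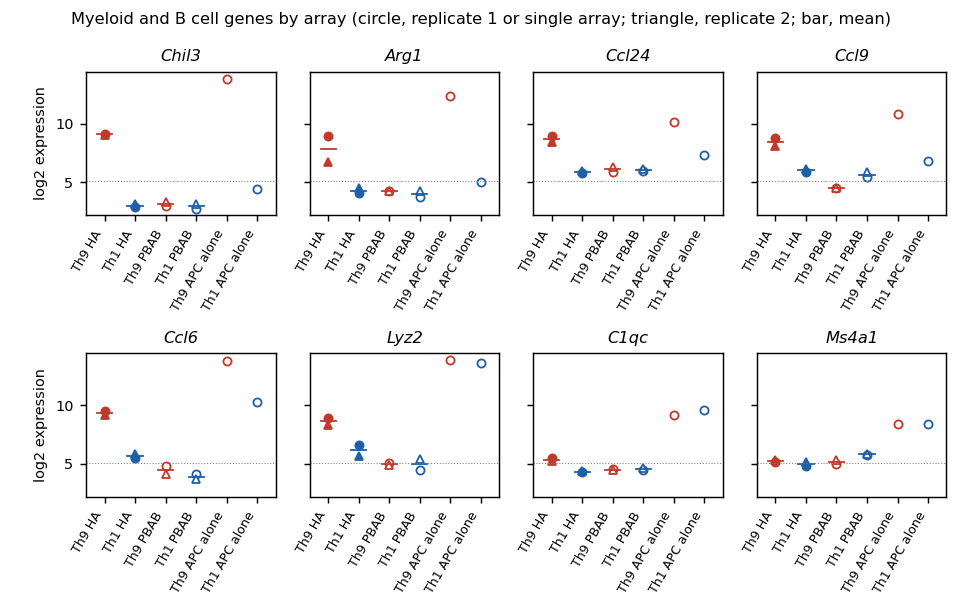
Log2 expression (vertical axis) of 8 genes of myeloid and B cells on each array, with Th9 (red) left of Th1 (blue) for HA, PBAB and APC alone. Filled symbols are HA, open symbols PBAB and APC alone, circles replicate 1 or the single array, triangles replicate 2, bars group means and the dotted line the threshold of 5.07; Chil3 is at 9.11 and 9.07 in Th9 HA and at 2.89 and 3.13 in Th1 HA.

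Class II presentation gave 4 higher (1.91% of all genes), none lower and 8 not called of 12, with a median of 0.34. H2-DMb2, a subunit of the peptide-loading protein H2-M, was at 7.16 and 7.27 in Th9 HA, against 5.99 and 5.93 in Th1 HA (1.25 ± 0.17, adjusted p = 0.00184). H2-Aa, the alpha chain of the class II molecule, was at 7.17 and 7.30 in Th9 HA, against 5.82 and 6.14 in Th1 HA (1.25 ± 0.30, adjusted p = 0.0393). These are low levels without overlap. Ifi30, a thiol reductase of antigen processing (1.20 ± 0.22), and H2-DMa, the other subunit of H2-M (0.96 ± 0.22), were higher, while the invariant chain Cd74 (0.36) and the beta chain H2-Ab1 (0.33) were not called. The number of calls was 1 without Th1 HA 2 and 2 without each of the other 3 arrays. That of H2-Aa was lost without any of the 4, that of Ifi30 without Th1 HA 2 or Th9 HA 1 and that of H2-DMa without Th1 HA 1, Th1 HA 2 or Th9 HA 2 (adjusted p up to 0.21, 0.0698 and 0.209).

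Markers of B cells, dendritic cells, basophils and neutrophils were read in the same way. Of all genes 5.34% were called, so the single calls among B cell and neutrophil genes say little about those lists. The mean of 19 B cell genes was 5.81 and 5.91 in Th9 HA, against 5.59 and 5.62 in Th1 HA, and 7 of them lay below the threshold in all 4 arrays. Cd79b, a chain of the B cell receptor, was the only called one, at 7.34 and 7.26 in Th9 HA, against 5.81 and 5.58 in Th1 HA (1.60 ± 0.19, adjusted p = 0.000663), while Cd79a (0.05), Ms4a1 (0.26) and Pax5 (0.25) were not. Cd79b differed in the PBAB cultures too, at 7.63 and 7.76 in Th9 PBAB, against 5.51 and 5.63 in Th1 PBAB. Among dendritic cell genes, Itgax (CD11c) was at 6.34 and 5.96 in Th9 HA, against 5.06 and 4.74 in Th1 HA (1.25 ± 0.20, adjusted p = 0.00466), with a Th1 HA mean below the threshold, and Cd83, which activated T cells also express, gave 2.15 ± 0.48. The call of Cd83 was lost without Th1 HA 2 or Th9 HA 1 (adjusted p up to 0.166), and 10 of the 12 genes were not called. With the replicate block the dendritic cell list had 2 higher and 3 lower, where 731 of all 15497 genes were higher and 1132 lower. Of 8 basophil and mast cell genes none was called, with means of 4.86 and 5.26 in Th9 HA, against 4.98 and 5.12 in Th1 HA. Neutrophil genes had means of 4.61 and 5.05 in Th9 HA, against 4.95 and 4.95 in Th1 HA, with the chemokine receptor Cxcr2 the 1 call of 10 (-1.37 ± 0.27, adjusted p = 0.0138), lost without Th1 HA 1, Th9 HA 1 or Th9 HA 2 (adjusted p up to 0.0904).

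Other T cells than the sorted ones could be looked for through CD8 and gamma-delta genes. Trgv4, a variable segment of the gamma chain, was at 9.44 and 9.94 in Th9 HA, against 6.49 and 6.54 in Th1 HA (3.18 ± 0.57, adjusted p = 0.00836), a call lost without Th9 HA 2 (adjusted p = 0.0694). Cd8a was at 7.46 and 9.05 in Th9 HA, against 6.79 and 8.11 in Th1 HA (0.81 ± 0.92, adjusted p = 0.822), and was called with the replicate block (adjusted p = 0.0257). Cd8b1 was at 7.47 and 8.51 in Th9 HA, against 8.13 and 9.09 in Th1 HA, and was not called. The CD8 genes overlapped between groups and were higher on replicate 2 than on replicate 1 in both.

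Genes of the T cell receptor and its proximal signalling gave 4 lower (3.43% of all genes), none higher and 12 not called of 16. Their median was -0.13. The 4 were coreceptors, not parts of the receptor itself. Cd2, an adhesion receptor, was at 10.81 and 10.79 in Th9 HA, against 11.61 and 12.01 in Th1 HA (-1.01 ± 0.17, adjusted p = 0.00525). Cd5, which dampens receptor signals, was at 7.66 and 7.06 in Th9 HA, against 9.08 and 8.67 in Th1 HA (-1.52 ± 0.34, adjusted p = 0.028). Cd6, a relative of Cd5, gave -1.05 ± 0.22, and Cd28, the costimulatory receptor, -1.07 ± 0.25. All 4 were without overlap, and the calls of Cd5 and Cd6 were lost without Th1 HA 1, Th1 HA 2 or Th9 HA 2, and that of Cd28 without any of the 4 (adjusted p up to 0.208, 0.156 and 0.213). The list had 1 lower without Th1 HA 1, Th1 HA 2 or Th9 HA 2. Of 23 early genes of receptor signalling none was called, although the median was -0.52. With the replicate block 7 were lower, where 1132 of all 15497 genes were. Jun was at 8.86 and 7.83 in Th9 HA, against 10.45 and 9.88 in Th1 HA (-1.82 ± 0.51), with adjusted p = 0.0737 without the block and 3.64e-05 with it. Myc was at 9.99 and 8.46 in Th9 HA, against 11.70 and 10.60 in Th1 HA (-1.93 ± 0.54), with adjusted p = 0.0751 and 0.000223. In both genes replicate 1 was above replicate 2 in each lineage.

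Inhibitory receptors gave 4 lower (3.43% of all genes), 1 higher (1.91%) and 9 not called of 14, with a median of -0.53. Havcr2, the receptor TIM-3 of Th1 cells, was at 4.72 and 4.69 in Th9 HA, against 8.49 and 7.91 in Th1 HA (-3.49 ± 0.32, adjusted p = 0.000113). Btla, a receptor of the CD28 family, was at 7.06 and 6.66 in Th9 HA, against 9.97 and 10.57 in Th1 HA (-3.40 ± 0.24, adjusted p = 2.59e-05). Both stood clear, and the Th9 HA mean of Havcr2 was below the threshold. Entpd1, the ectoenzyme CD39, was lower (-1.70 ± 0.35), as was Lair1 (-1.07). The higher member was Cd200r1, the receptor of CD200, at 7.47 and 7.59 in Th9 HA, against 6.09 and 6.67 in Th1 HA (1.15 ± 0.27, adjusted p = 0.0317). The calls of Entpd1 and Cd200r1 were lost without Th1 HA 1, Th9 HA 1 or Th9 HA 2 (adjusted p up to 0.112 and 0.218). The list then had none higher, and 3, 2 and 2 lower in that order, while the replicate block gave 3 higher and 5 lower. Pdcd1 (-0.50), Ctla4 (0.52) and Lag3 (-0.77) were not called. Of 14 genes of regulatory T cells, Il2ra and Entpd1 were lower (3.43% of all genes) and Nt5e was the 1 higher (1.91%). Nt5e (CD73), the partner of CD39 in adenosine production, was at 7.53 and 7.79 in Th9 HA, against 6.45 and 6.36 in Th1 HA (1.26 ± 0.19, adjusted p = 0.00344), a call held leaving out any 1 array. Without Th1 HA 1, Th9 HA 1 or Th9 HA 2 no member of that list was lower, and the block gave 4 higher and 3 lower.

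Among 17 costimulatory genes 3 were higher (1.91% of all genes) and 4 lower (3.43%), with a median of -0.57. Tnfsf11, the ligand RANKL, was at 8.23 and 7.89 in Th9 HA, against 6.42 and 5.85 in Th1 HA (1.92 ± 0.29, adjusted p = 0.00318). Tnfsf14, the ligand LIGHT, was at 8.32 and 7.72 in Th9 HA, against 6.31 and 5.69 in Th1 HA (2.01 ± 0.34, adjusted p = 0.00587), lost without Th1 HA 2 or Th9 HA 1 (adjusted p up to 0.0537). Both ligands, of the tumour necrosis factor family, were without overlap. Tnfsf10, the ligand TRAIL, was higher (1.42 ± 0.33), and Tnfsf4, the OX40 ligand (-2.04 ± 0.42), Cd80 (-1.60 ± 0.32) and the receptor Tnfrsf1b (-1.0 ± 0.17) were lower with Cd28. The lower calls of the list fell to 1 without Th1 HA 2, 1 without Th9 HA 1 and 1 without Th9 HA 2, and calls were lost for Tnfrsf1b without Th1 HA 2 or Th9 HA 2, for Cd80 without Th1 HA 1 or Th9 HA 1, for Tnfsf4 without Th1 HA 2, Th9 HA 1 or Th9 HA 2, and for Tnfsf10 without Th1 HA 1, Th1 HA 2 or Th9 HA 2 (adjusted p up to 0.0522, 0.105, 0.125 and 0.229).

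Homing receptors gave 4 higher (1.91% of all genes), 2 lower (3.43%) and 17 not called of 23, with a median of -0.15. Ccr4, a receptor of type 2 cells, was at 8.02 and 7.65 in Th9 HA, against 6.65 and 6.39 in Th1 HA (1.31 ± 0.21, adjusted p = 0.00442). Itga4, the alpha 4 integrin, was at 10.04 and 9.42 in Th9 HA, against 8.76 and 8.44 in Th1 HA (1.13 ± 0.22, adjusted p = 0.0126), while Itgb1, its beta 1 partner, was at 8.10 and 8.28 in Th9 HA, against 8.95 and 9.28 in Th1 HA (-0.92 ± 0.18, adjusted p = 0.0146). With Ccr8 and Itgae these made up the 4 and, with Ccr2, the 2. Calls were lost for Itga4 without Th1 HA 2 or Th9 HA 1 and for Itgb1 without Th1 HA 2, Th9 HA 1 or Th9 HA 2 (adjusted p up to 0.103 and 0.124). Cxcr3, the receptor most used to mark Th1 cells, was at -1.80 and was called with the replicate block only (adjusted p = 0.057 without and 0.0112 with it). The block gave 5 lower members of the list, and 1132 lower of all 15497 genes. The follicular receptor Cxcr5 was at 4.00 and 4.14 in Th9 HA, against 7.24 and 5.15 in Th1 HA (-2.12 ± 0.63), with adjusted p = 0.0962 without the block and 0.0058 with it.

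S100 proteins, annexins and galectins gave 5 lower (3.43% of all genes), none higher and 9 not called of 14, with a median of -0.85. Beside Anxa1 and S100a4, S100a6 was at 10.07 and 9.77 in Th9 HA, against 11.98 and 11.83 in Th1 HA (-1.99 ± 0.32, adjusted p = 0.00506). S100a10, the partner of annexin A2, was at 11.94 and 11.71 in Th9 HA, against 13.36 and 13.25 in Th1 HA (-1.48 ± 0.17, adjusted p = 0.000518). Lgals3, galectin-3, gave -1.56 ± 0.28, a call lost without Th1 HA 1 or Th9 HA 2 (adjusted p up to 0.0713), and Lgals1 (-0.18) was not called. The groups of the called genes did not overlap. In the p200 family Ifi209 was at 7.67 and 8.97 in Th9 HA, against 10.36 and 11.70 in Th1 HA (-2.71 ± 0.46, adjusted p = 0.00604).

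Other lists had few calls, where 5.34% of all genes were called. In the IL-2 list Il2ra, the chain that makes the receptor bind tightly, was at 10.43 and 10.12 in Th9 HA, against 11.66 and 11.28 in Th1 HA (-1.19 ± 0.25, adjusted p = 0.0204), and Pim1, a kinase that cytokines induce, gave -1.18 ± 0.19, the 2 called of 13. Il2ra was not called without Th1 HA 1, Th9 HA 1 or Th9 HA 2 (adjusted p up to 0.152). Of 14 genes of quiescent T cells, Foxp1 was the 1 called (-1.25 ± 0.22, adjusted p = 0.00822), a call lost without Th1 HA 2 or Th9 HA 2 (adjusted p up to 0.0724), and S1pr1 (-1.12 ± 0.30) and Klf2 (-1.06 ± 0.29) were called with the replicate block only (adjusted p = 0.00202 and 0.029). In the Th17 list, Il1r1, the IL-1 receptor, was higher (1.45 ± 0.23, adjusted p = 0.00479), and Ahr was higher at an adjusted p of 0.0493 that was lost without Th1 HA 1, Th1 HA 2 or Th9 HA 1 (adjusted p up to 0.259). Il17a was at 5.65 and 6.04 in Th9 HA, against 5.47 and 5.85 in Th1 HA and was not called. None of 9 follicular helper genes was called, and 4 were lower with the replicate block, Il21 among them (-0.93 ± 0.39, adjusted p = 0.279 without and 0.00874 with it).

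Cell cycle genes lay almost all above 0, with few calls. Of 30 genes, 29 lay above 0, the median was 0.43, and the arrays did not overlap in the higher direction for 18 of them (18.8% of all genes). Tyms, which makes thymidylate, was the 1 called, at 6.94 and 6.97 in Th9 HA, against 5.89 and 6.03 in Th1 HA (1.00 ± 0.22, adjusted p = 0.0261), and was lost without any of the 4 arrays (adjusted p up to 0.14). Top2a, which untangles replicated DNA, was at 12.05 and 12.14 in Th9 HA, against 11.46 and 11.60 in Th1 HA (0.56 ± 0.28, adjusted p = 0.381). With the replicate block 5 of the list were higher, where 731 of all 15497 genes were. In the PBAB cultures the median of the same list was 0.48 with none called. Glycolysis (median -0.10 over 15 genes), cholesterol synthesis (0.01 over 17) and ATF4 target genes (-0.11 over 20) had no called member.

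Whether these differences depended on how the cells were activated was asked by setting the HA contrast against the same contrast under PBAB. There 334 of 15497 genes were called (2.16%), 194 higher (1.25%) and 140 lower (0.903%). Both contrasts called 156 genes, which are 18.9% of the HA calls and 46.7% of the PBAB calls, and 146 of these had the same direction. The difference between the contrasts was called for 212 genes (1.37%), 66 of them (0.426%) with the HA contrast the more positive and 146 (0.942%) with it the more negative. That number was 739 with the replicate block, 136 without Th9 HA 2, 138 and 100 without Th9 PBAB 1 and Th9 PBAB 2, and 100 and 102 without Th1 PBAB 1 and Th1 PBAB 2. Of the 827 genes called under HA, 165 (20.0%) were among them. HA cultures held splenocytes and PBAB cultures did not, and the HEL dose differed between the lineages under HA only. In the difference between contrasts, activation, the presence of splenocytes and the HEL dose cannot be told apart.

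Some differences were large under both. Ifng was at -5.27 under HA and -5.05 under PBAB, Il18r1 at -4.81 and -5.33, Serpinb5 at -5.44 and -4.28, Il4 at 3.41 and 4.00 and Ccr8 at 4.36 and 3.47, in that order, and the difference between contrasts was not called for these 5. The differences of Il5 and Maf were smaller under HA. Il5 was at 8.59 and 8.49 in Th9 PBAB, against 3.70 and 4.15 in Th1 PBAB, so that its difference was 1.46 under HA and 4.61 under PBAB (-3.15, adjusted p = 0.00204). For Maf, at 10.67 and 10.58 in Th9 PBAB and 6.22 and 5.87 in Th1 PBAB, the differences were 1.45 under HA and 4.58 under PBAB (-3.13, adjusted p = 0.00341). The Th9 arrays of Maf were close under both activations, and the Th1 HA arrays stood about 3 units above the Th1 PBAB ones. Gata3 (1.62 under HA and 3.48 under PBAB) and Il13 (1.55 and 3.34) were not called for the difference between contrasts (adjusted p = 0.2 and 0.17).

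Other differences were larger under HA. Itgae was at 7.09 and 8.15 in Th9 PBAB, against 5.83 and 6.06 in Th1 PBAB, and its difference was 3.64 larger under HA (adjusted p = 0.00418). Il17rb was at 5.63 and 6.04 in Th9 PBAB, against 4.81 and 5.19 in Th1 PBAB, a gap 4.01 larger under HA (adjusted p = 0.000767). Hopx was high in all PBAB arrays, at 10.52 and 10.92 in Th9 PBAB, against 11.46 and 11.44 in Th1 PBAB, and the difference between its contrasts was -3.91 (adjusted p = 0.00105). Il12rb2 was at 6.76 and 7.31 in Th9 PBAB, against 7.35 and 6.65 in Th1 PBAB, so that the groups overlapped under PBAB and parted under HA (-3.28, adjusted p = 0.00693). Tbx21 was at 8.48 and 7.53 in Th9 PBAB, against 9.87 and 8.52 in Th1 PBAB, and the difference between its contrasts was not called (adjusted p = 0.052).

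**Figure D5:**
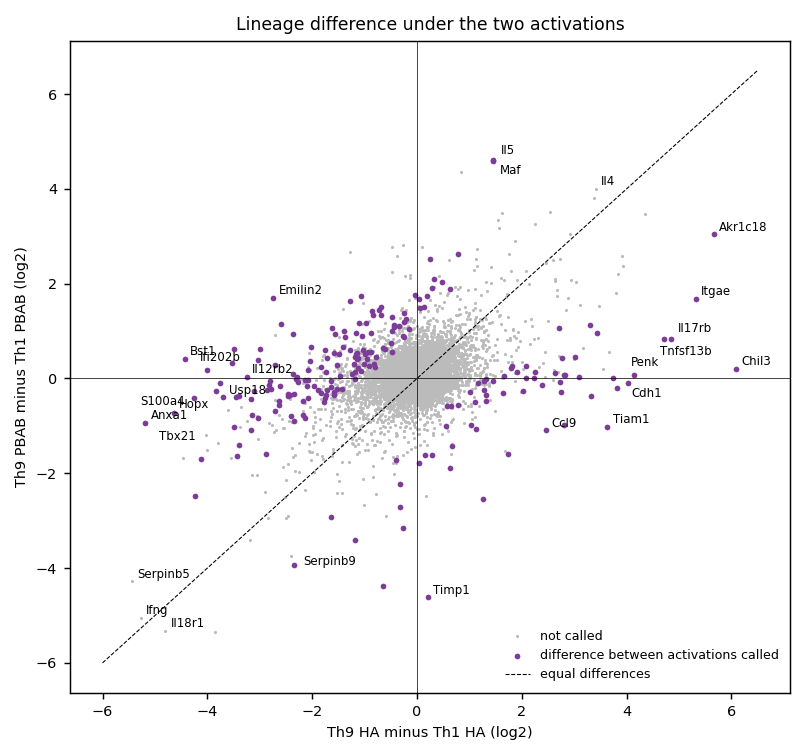
Difference of Th9 minus Th1 under HA (log2, horizontal axis) against the same difference under PBAB (log2, vertical axis), 1 point a gene over 15497 genes. Purple points are the 212 genes called for the difference between the activations, grey points those not called, and the dashed line marks equal differences; Chil3 lies at 6.08 under HA and 0.21 under PBAB, and Il5 at 1.46 and 4.61.

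A small number of genes turned round between the activations. Of the genes called in both contrasts 10 had opposite signs, and all 10 were called for the difference. Ifngr1 was at 10.34 and 10.86 in Th9 PBAB, against 9.41 and 9.46 in Th1 PBAB (1.17), where under HA it was at -0.98. Itga4 was at 7.0 and 7.16 in Th9 PBAB, against 8.04 and 8.26 in Th1 PBAB (-1.07), where under HA it was at 1.13. The 2 genes ran in opposite senses, Ifngr1 lower under HA and Itga4 higher. Emilin2, an extracellular matrix glycoprotein, was at 9.20 and 8.11 in Th9 HA, against 11.59 and 11.20 in Th1 HA, and at 9.83 and 9.55 in Th9 PBAB, against 8.04 and 7.93 in Th1 PBAB (-2.74 under HA and 1.71 under PBAB). The inhibitory receptor Lair1 (-1.07 and 1.73), the kinase Dapk2 (-1.05 and 0.91), Lrrk1 (-2.59 and 1.14), Pglyrp2 (-1.10 and 1.16), Rnf130 (-0.69 and 1.35), Iqcf5 (-0.88 and 0.95) and 5830428M24Rik (-1.16 and 0.95) were the others. The HA calls were lost for Ifngr1 and Rnf130 without any of the 4 arrays, for Lair1 without any but Th1 HA 1, for Itga4 and Pglyrp2 without Th1 HA 2 or Th9 HA 1, for 5830428M24Rik without Th1 HA 2 or Th9 HA 2, and for Dapk2 and Iqcf5 without Th9 HA 1. On the mean of all probe sets the difference between contrasts was not called for Maf, Itga4 and Rnf130 (adjusted p = 0.285, 0.0546 and 0.343).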

How the data were processed

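RNA of 15 mouse arrays was measured by the authors on a 3′ expression array, and they deposited 1 value for each of 45101 probe sets per array. The values are RMA-normalized per the submitters' processing notes, with a version not given in the sources used here. The deposited values were taken as log2 from their range, since no label states the base. Platform annotation of 2016 gave 34958 probe sets 1 symbol, 932 several and 9211 none. For each of 18193 symbols the probe set with the highest mean over the 15 arrays was kept, and genes above 5.07 (the 40th percentile) in at least 2 arrays were tested, 15497 in all.

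Arrays were grouped by the labels, and limma 3.58.1 in R 4.3.3 was fitted over all 15 arrays in 9 groups with no block (6 residual degrees of freedom, prior 4.38) and Benjamini-Hochberg adjustment over all genes. The contrasts were Th9 HA minus Th1 HA, the same under PBAB, and their difference. The fit was tested on simulated data. Alternatives changed the filter, normalization, probe set choice, weights, prior and arrays in the fit.

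Replicate numbers are shared across groups in the labels. Same-numbered arrays of the 15 pairs of replicated groups correlated in their deviations from the group means at 0.296 to 0.708 (median 0.484, and 0.578 for Th9 HA with Th1 HA), so the numbers were taken as pairs on that basis, and a blocked fit is given where it changes a call.

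The comparison, the members and the 34 lists (633 entries, 574 on the array and 551 tested, 5 of them matched by a synonym) were chosen with earlier results of these data known. The naming rule took the 12 called genes of largest difference in each direction without overlap between the groups, up to 3 members per list by smallest p, a set of lineage genes and the 4 largest differences between activations each way, giving 133 tested genes. Other genes in the text were chosen after their values were seen. Promoter windows are RefSeq, GRCm38.p6, and 102 of the 133 had one.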

Additional observations from a re-analysis of the deposited data

Results flagged for a closer look

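Among 133 named genes tested, the difference between the HA and PBAB contrasts (Th9 minus Th1 under HA minus the same under PBAB, log2) was called for 32 by limma at an adjusted p under 0.05. Over all genes tested, 212 of 15497 (1.37%) were called. The HA difference was the larger in size for 28 of the 32 named genes. The naming rule used the size or p of the HA difference and the size of this difference, which favours a larger HA value. Signs were opposite under the 2 activations for 13 of the 32. Among these only Emilin2 was called in both contrasts, and some PBAB values lay near 0, as for Cdh1 (-0.09) and Il12rb2 (0.04). All HA groups held splenocytes and the PBAB groups none, and only under HA did the HEL dose differ between the lineages. Activation, splenocytes and HEL dose therefore cannot be told apart here.

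The value was positive for 14 genes, with Chil3 at 5.88, Mmp12 at 4.03, Ccl9 at 3.56, Ccl24 at 2.75, Itgae at 3.64 and Cdh1 at 4.11. Further positive values were those of Timp1 (4.82), Tiam1 (4.65), Penk (4.07), Il17rb (4.01), Tnfsf13b (3.88), Akr1c18 (2.62), Serpinb9 (1.58) and Eomes (1.34). Timp1 itself was not called under HA. Serpinb9 was lower in Th9 under both activations, by less under HA.

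The value was negative for 18 genes, with Hopx at -3.91, Gzmk at -3.86, Il12rb2 at -3.28, Gzme at -2.61, Havcr2 at -2.48, Btla at -2.01 and Tnfrsf1b at -1.51. The type 2 genes Il5 (-3.15) and Maf (-3.13) were also negative, their difference being smaller under HA. The remaining genes were Bst1 (-4.85), Emilin2 (-4.45), Anxa1 (-4.24), Ifi202b (-4.18), S100a4 (-3.85), Usp18 (-3.30), Atp8b4 (-2.44), Gm8369 (-1.76) and Pim1 (-1.31). Leaving out 1 array of the 8 ended the call in some refit for Akr1c18, Atp8b4, Btla, Eomes, Gm8369, Havcr2, Pim1, S100a4, Serpinb9, Timp1 and Tnfrsf1b, with a highest adjusted p of 0.0574 to 0.159 by gene. On the mean of all probe sets Maf, Atp8b4 and Serpinb9 were not called (adjusted p = 0.285, 0.0799 and 0.289). Serpinb9 was also lost with arrays centred on their medians, with array weights and with a trended prior, and Pim1 with array weights (adjusted p = 0.0519).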

How the results depend on the processing

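Against 827 called genes (296 higher and 531 lower in Th9 HA), the replicate block with the 12 activated arrays gave 1863 (731 higher, 1132 lower), and the 4 arrays fitted alone gave 364 (134 and 230). Leaving out 1 array gave 474 to 581 (157 to 212 higher, 262 to 370 lower), the lone array being assumed to vary like the other groups. The other settings gave 732 to 856. Calls of the difference between activations, 212, were 739 with the block and 100 to 204 leaving out 1 array. The share of calls that were higher was 35.8%, and 30.9% to 44.7% over the settings. Of 86 named genes called, 54 held under every setting run, 32 were lost under some, 0 reversed and none was lost under the block, which changed no other call of a named gene than those given with it in the text and those of Psmb9, Bst2, Xbp1, Sh2d1a, Nr4a2, Hk2, Insig1, Hsd17b7 and Slfn8, uncalled without it (adjusted p = 0.0482, 0.0368, 0.00414, 0.0243, 0.0386, 0.0476, 0.0133, 0.0295 and 0.0108 with it). Arg1, C1qc, Cd2, Ifi209, Itgax and Skil were lost in the fit of the 4 arrays alone and held leaving out any 1 array.

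Sign changes were confined to named genes that were not called. Leaving out 1 array in turn gave -0.002615 to 1.35 for Cpa3, -0.51 to 0.003415 for Hdc, -1.36 to 0.41 for Il10, -0.0801 to 0.002285 for Spi1, -0.78 to 0.52 for Irf4 and -0.51 to 0.37 for Stat6. It gave -0.44 to 0.17 for Stat4, -0.0123 to 0.38 for Il17a, -0.28 to 0.59 for Cd3e, -0.60 to 0.19 for Cd4 and -0.81 to 1.21 for Timp1. After a second quantile normalization Stat6 was at 0.0136. The refits leaving out 1 array had no replicate block, so replicate numbers were unbalanced between the 2 groups in them. How far this made the sign changes or the lost calls was not tested.

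The main limits are 2 arrays a group, a HEL dose that differed with lineage, splenocytes in the HA cultures, and group means below the threshold, where a difference is uncertain in size.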

Other observations

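Some gene families stood out when the called genes were read through, and they were picked for that, so their counts are descriptions. All 5 tested Ms4a4 and Ms4a6 genes, which encode membrane proteins with 4 spans, were lower in Th9 HA, with a median of -2.89. Ms4a4b was at 8.25 and 9.68 in Th9 HA, against 12.39 and 13.24 in Th1 HA, and Ms4a6c at 7.01 and 7.03 in Th9 HA, against 9.92 and 9.89 in Th1 HA. The groups did not overlap in these 2 genes, and 4 of the 5 were lower under PBAB as well. Of 11 Serpinb genes 5 were lower (median -1.25) and none was higher. Beside Serpinb5, Serpinb9 and Serpinb6b these were Serpinb1a, at 5.69 and 5.06 in Th9 HA, against 9.22 and 9.53 in Th1 HA, and Serpinb6a, at 9.10 and 8.89 in Th9 HA, against 10.33 and 10.54 in Th1 HA. Under PBAB 4 Serpinb genes were lower.

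Among 7 Ifitm genes, which encode membrane proteins that restrict virus entry, 3 were lower (median -0.25). Ifitm1 was at 9.20 and 9.54 in Th9 HA, against 12.53 and 13.09 in Th1 HA, and Ifitm3 at 9.40 and 9.18 in Th9 HA, against 12.62 and 12.34 in Th1 HA. Both stood clear of overlap. Ifitm3 was lower under PBAB (-3.41) and Ifitm1 was not called there (-0.34), and the difference between the contrasts was not called for either (adjusted p = 0.919 and 0.115). Of 9 Klr receptor genes 3 were lower, Klrc1 being the third with Klrk1 and Klrd1, and its call was lost without Th1 HA 2 or Th9 HA 1.

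Both tested segments of the gamma chain of the T cell receptor were higher. Trgv1 was at 10.81 and 11.40 in Th9 HA, against 8.13 and 8.67 in Th1 HA (2.71 ± 0.52, adjusted p = 0.0126), without overlap, and its call was lost without Th1 HA 1 or Th9 HA 2 (adjusted p up to 0.1). Under PBAB Trgv1 and Trgv4 were at 0.47 and 0.65 and were not called. Of 5 Akr1c genes, neighbours in sequence whose probe sets may share signal, 3 were higher (median 1.15). Akr1c13 was at 10.04 and 9.90 in Th9 HA, against 8.29 and 7.48 in Th1 HA, with differences of 2.08 under HA and 2.26 under PBAB. The HA calls of Akr1c12 and Akr1c13 and that of Ifitm2 were each lost in some refit that left out 1 array.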
